A study of Mus musculus with 8 samples.

Results

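The transcription factors that set photoreceptor fate and maturation were examined in the retina of mice that lack Lpcat1, lysophosphatidylcholine acyltransferase 1, which makes phosphatidylcholine from its lyso form. The group holds 10 genes, Nrl, Nr2e3, Crx, Otx2, Rorb, Thrb, Rxrg, Neurod1, Prdm1 and Mef2d, and its members are every array probe whose RefSeq transcript maps to 1 of these symbols. This gave 15 of the 55681 probes on the array, and all 15 were well above background on all 8 arrays. Total RNA of the whole retina was hybridised in 1 colour (Cy3) to Agilent arrays from 4 Lpcat1 wildtype (WT) and 4 Lpcat1 knockout (KO) samples. Every animal was 2 weeks old with the strain given as C57BL/6, and the labels name no treatment. By the methods, the KO line was made on a C57BL6/N background, which carries the rd8 mutation of Crb1, and was crossed to C57BL6/J, after which animals homozygous for rd8 were not used. The share of each substrain in the animals used is not given in the sources used here. The deletion is not described as restricted to a cell type. The labels do not say whether the samples were separate animals, so p-values measure the spread between these samples.

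Rods and cones arise from shared precursors that express Otx2 and then Crx. Nrl and its downstream partner Nr2e3 direct these cells to the rod fate, with Nr2e3 switching on rod genes together with Nrl and Crx and holding cone genes down. Thrb and Rxrg, nuclear receptors that act in cones, govern the pattern of the cone opsins. The remaining factors act on both lineages or at the choice between photoreceptor and bipolar fates, and several of them stay on in the mature outer retina.

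Levels below are log2 processed signal minus the 75th percentile of the same array, so that a difference of 1 is a doubling of signal relative to that percentile. Levels of different genes were not compared, and probes of 1 gene were ranked by level only to choose its value. The targeted gene was lower in the KO arrays. Lpcat1 read -0.42, -0.39, -0.43 and -0.38 on the WT arrays and -0.88, -0.92, -0.90 and -0.78 on the KO arrays. The genotypes did not overlap, and the difference was -0.46 (SE 0.043, limma adjusted p = 0.0036). Where this probe lies relative to the deleted part was not analysed here, so signal left on the KO arrays says nothing about residual transcript. All arrays shared 1 slide, with the WT arrays in one row and the KO arrays in the other, so that slide row and genotype cannot be told apart. The number of probes well above background was 35772.8 ± 650 in WT and 34277.5 ± 1170 in KO (SD, n = 4, two-sided exact permutation p = 0.114, the smallest possible being 0.0286). Defining markers of the outer retina were present: Gnat1 read between 8.14 and 8.25 and Arr3 between 5.05 and 5.10 on the WT arrays.

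The promoters of the factors and of a target are printed because the group is wired through them: Crx and Otx2 bind TAATCC, and Nrl, Nr2e3 and Crx meet at rod promoters. RefSeq sequence (GRCm38.p6) was matched by symbol for 10 of 10 factors, at 16 start sites. The 250 bases before the start site are given 5′ to 3′ on the strand of the gene, with TAATCC or its reverse complement GGATTA in capitals. Nrl lies at chr14:55524253-55524502 on the minus strand, Nr2e3 at chr9:59950080-59950329 on the minus strand and Crx at chr7:15879956-15880205 on the minus strand. Sag, the rod arrestin described among the rod genes below, lies at chr1:87803430-87803679 on the plus strand. The windows of Nrl and Nr2e3 lie inside the span that RefSeq gives the gene, whose annotation reaches further upstream than the start site used.
Nrl: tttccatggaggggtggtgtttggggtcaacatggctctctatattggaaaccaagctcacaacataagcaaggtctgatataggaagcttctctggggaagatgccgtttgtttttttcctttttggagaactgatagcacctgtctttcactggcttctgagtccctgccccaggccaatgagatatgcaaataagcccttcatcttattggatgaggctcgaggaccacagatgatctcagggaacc
Nr2e3: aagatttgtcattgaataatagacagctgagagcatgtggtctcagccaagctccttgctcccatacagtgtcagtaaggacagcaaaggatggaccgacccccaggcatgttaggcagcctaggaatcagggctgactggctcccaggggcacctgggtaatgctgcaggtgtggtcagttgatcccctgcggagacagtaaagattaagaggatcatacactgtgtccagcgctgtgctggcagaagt
Crx: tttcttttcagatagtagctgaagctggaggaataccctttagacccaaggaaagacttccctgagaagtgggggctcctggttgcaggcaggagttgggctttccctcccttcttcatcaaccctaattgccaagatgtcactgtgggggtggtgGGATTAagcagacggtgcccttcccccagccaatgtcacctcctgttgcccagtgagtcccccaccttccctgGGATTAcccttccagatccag
Sag: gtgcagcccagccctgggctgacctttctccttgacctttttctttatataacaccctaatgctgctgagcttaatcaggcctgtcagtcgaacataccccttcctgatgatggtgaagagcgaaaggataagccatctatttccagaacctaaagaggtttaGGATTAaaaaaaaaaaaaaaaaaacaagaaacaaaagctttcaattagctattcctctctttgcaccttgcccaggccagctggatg

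Crx carried GGATTA at 2 places, with first bases 94 and 21 bases before the start site (positions -94 and -21). Neither Nrl nor Nr2e3 held either form of the site in this window. Of the other factors, 1 of 4 Otx2 start sites (position -211) and 1 of 2 Thrb start sites (position -46) held it, which made 3 of 16 windows in all (18.8%). The site stood in 2054 of 32851 windows of the same length across the genome (6.25%), in 9 of 22 windows of the rod genes (40.9%) and in 4 of 17 of the cone genes (23.5%). These windows cover the 20 of 30 rod genes and 11 of 16 cone genes that the table matched, and start sites of 1 gene can lie a few bases apart and share sequence, so that by gene the site stood in 9 of 20 rod and 3 of 11 cone genes. The core of the Maf element that Nrl recognises, TGCTGA or TCAGCA, was present in 16.1% of all windows, 36.4% of rod gene windows, 11.8% of cone gene windows and 25.0% of windows of the factors. A Prdm1 core, GTGAAAG or CTTTCAC, stood in the windows of Nrl and of 1 of the Rorb start sites (both at position -104), against 3.57% of all windows and 0 of the rod and cone gene windows. AAGTCA or TGACTT, a sequence that Nr2e3 recognises, stood in 0 of the 16 windows of the factors, 4.55% of rod and 5.88% of cone gene windows and 13.1% of all windows. The nuclear receptor sequence AGGTCA or TGACCT was found in 12.5% of windows of the factors, 27.3% of rod, 17.6% of cone and 14.0% of all windows. For the Neurod1 E-box CAGATG or CATCTG the shares were 12.5%, 9.09%, 23.5% and 14.4% in the same order. None of these 6 motifs contains another, and a match is a description of the sequence only.

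Of the 15 probes, 2 were called, both lower in KO: Nr2e3 and Prdm1. A probe was called at a limma adjusted p under 0.05 over all 33975 tested probes together with a fold change over 1.2. Over all tested probes 993 were called (2.92%), with 471 higher (1.39%) and 522 lower (1.54%). With 2 other scalings the split was 521 higher and 390 lower (quantile normalisation) and 564 higher and 373 lower the 75th percentile of detected probes). The genotypes did not overlap for 8 of the 15 probes, against 17.5% of all tested probes. Of these 8, 7 were lower in KO and 1 higher, where the shares over all probes were 11.4% and 6.05%. Whether called or not, 62% of all tested probes read lower in KO, and 23.8% had an unadjusted limma p under 0.05. In whole-retina RNA, fewer cells of a type and less RNA per cell cannot be told apart.

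**Figure D1:**
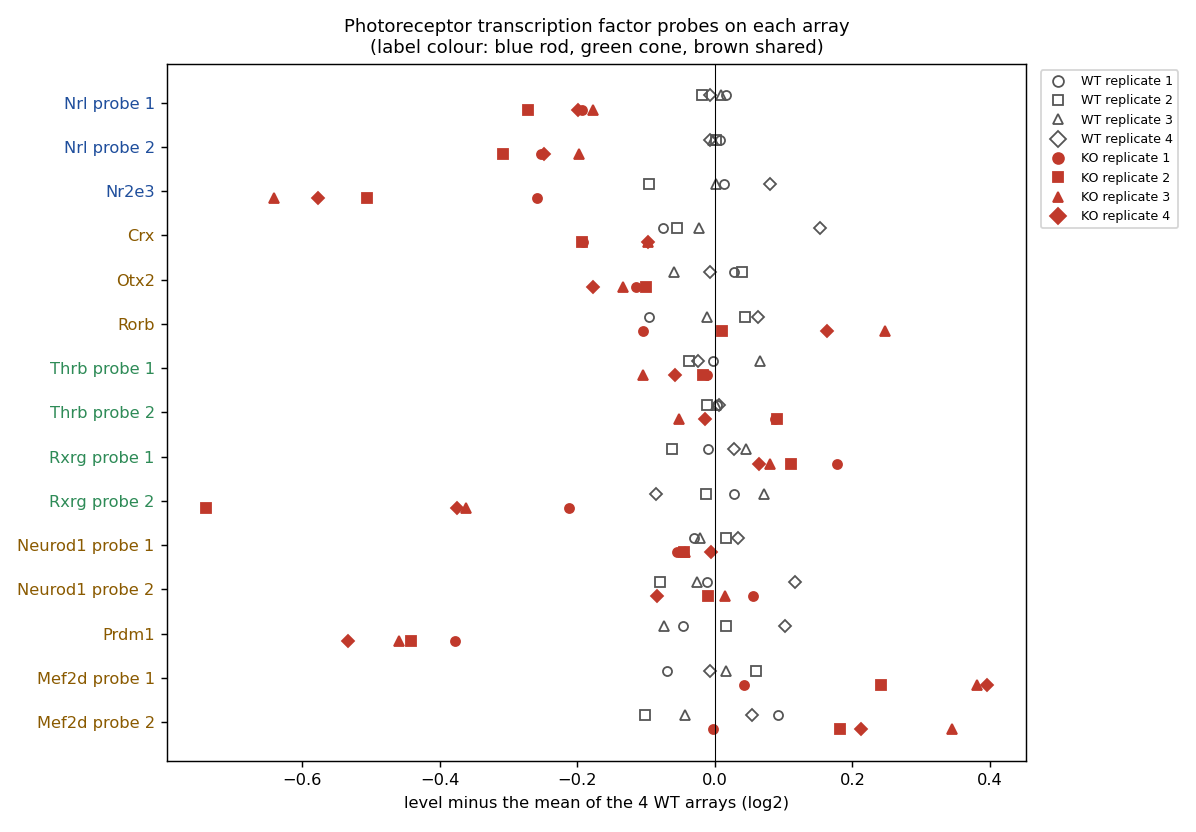
Each of the 15 probes on each array, as its log2 level minus the mean of the 4 WT arrays (open grey symbols WT, filled red symbols KO, symbol shape for replicate number). The KO symbols of both Nrl probes, Nr2e3, Crx, Otx2, Prdm1 and the second Rxrg probe all lie to the left of the WT symbols, and those of the first Rxrg probe to the right.

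Among the rod factors, Nr2e3 showed the larger difference. Nr2e3 encodes the orphan nuclear receptor that represses cone genes in rods. Its probe (transcript NM_013708) read 6.58, 6.47, 6.57 and 6.65 on the WT arrays and 6.31, 6.06, 5.93 and 5.99 on the KO arrays. All 4 KO arrays lay below every WT array, with KO replicate 1 the highest of them. The level fell by 0.50 on the log2 scale (SE 0.084, limma adjusted p = 0.0212, 95% interval -0.69 to -0.30), which left 70.9% of the WT signal. The call was made in 1 of the 8 runs that each omitted an array, and the limma adjusted p in those runs went from 0.0083 without KO replicate 1 to 0.0641 without KO replicate 2. It was made in 10 of 13 alternative settings, of which the looser adjusted p under 0.5 could not lose it. The call was lost with no filter on dim probes (limma adjusted p = 0.0725), at a fold over 1.5 and in a fit with replicate number as a term.

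Nrl, the Maf-family factor at the head of the rod programme, was measured by a pair of probes to transcript NM_001136074. The first (A_55_P2078463) read 8.29, 8.26, 8.29 and 8.27 on the WT arrays and 8.08, 8.01, 8.10 and 8.08 on the KO arrays. The second (A_55_P2160218) read 8.10, 8.09, 8.09 and 8.09 on the WT arrays and 7.84, 7.78, 7.89 and 7.84 on the KO arrays. On neither probe did the genotypes overlap, and the WT arrays nearly coincided. The differences were -0.21 (SE 0.036, limma adjusted p = 0.0219) and -0.25 (SE 0.036, adjusted p = 0.0131), or 86.4% and 84.0% of the WT signal. Both adjusted p-values passed the threshold, but neither fold reached 1.2, so neither probe was called. Without KO replicate 3 the second probe passed both limits, at -0.27. Nrl minus Nr2e3 within an array differed by 0.29 between genotypes, with KO replicate 1 inside the WT range. Quantile normalisation brought the differences to -0.10 and -0.08, with adjusted p-values of 0.199 and 0.311. Nr2e3 kept a difference of -0.42 there (adjusted p = 0.0401).

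Of the shared factors upstream of the rod pair, Crx and Otx2 gave negative differences of less than 1.2-fold, and neither passed the test. Crx, the homeodomain activator of most photoreceptor genes, read 4.14, 4.16, 4.19 and 4.36 on the WT arrays and 4.02, 4.02, 4.11 and 4.11 on the KO arrays. The genotypes were separated by a narrow gap, and the difference was -0.15 (SE 0.059, limma adjusted p = 0.183, 95% interval -0.28 to -0.01). Otx2, which acts before Crx and also in bipolar cells, read 5.82, 5.84, 5.74 and 5.79 on the WT arrays and 5.68, 5.70, 5.66 and 5.62 on the KO arrays. Again no KO array reached the lowest WT array, with a difference of -0.13 (SE 0.039, limma adjusted p = 0.0873). Rorb, a nuclear receptor that acts before Nrl, read 3.39, 3.53, 3.47 and 3.54 on the WT arrays and 3.38, 3.49, 3.73 and 3.64 on the KO arrays. The genotypes overlapped at a difference of 0.08 (SE 0.080, limma adjusted p = 0.591), whose 95% interval ran from -0.10 to 0.26.

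Prdm1 had the smallest adjusted p of the group. This zinc finger repressor holds back the bipolar fate in precursors that express Otx2. The probe (transcript NM_007548) read 0.55, 0.62, 0.53 and 0.70 on the WT arrays and 0.22, 0.16, 0.14 and 0.07 on the KO arrays. All 4 KO arrays lay below every WT array. Prdm1 fell by 0.45 on the log2 scale (SE 0.053, limma adjusted p = 0.0073, 95% interval -0.57 to -0.33), to 73.1% of the WT signal. It was called in all 8 runs that each omitted an array and in 11 of 13 alternative settings. Of these, the looser adjusted p under 0.5 could not lose the call. The call was lost at a fold over 1.5 and in the fit with replicate number as a term.

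Neurod1 and Mef2d did not pass the test. Neurod1, a basic helix-loop-helix factor of photoreceptor maintenance, gave differences of -0.04 (SE 0.035) and -0.01 (SE 0.053) on its probes, with overlapping genotypes on both. Mef2d, a MADS-box factor that works with Crx at photoreceptor enhancers, was the shared factor with the largest positive difference. Its first probe (A_55_P1966958) read -0.15, -0.02, -0.07 and -0.09 on the WT arrays and -0.04, 0.16, 0.30 and 0.31 on the KO arrays. KO replicate 1 fell within the WT range and the other 3 lay above it. Its change of 0.27 (SE 0.080) missed the threshold (limma adjusted p = 0.0924), and without KO replicate 1 it was 0.34 and was called (adjusted p = 0.0251). The second Mef2d probe gave 0.18 (SE 0.078, limma adjusted p = 0.201), with 3 of 4 KO arrays above every WT array.

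Neither cone factor passed the test. Thrb, the thyroid hormone receptor of cones, read 1.134, 1.098, 1.201 and 1.111 on the WT arrays and 1.125, 1.119, 1.032 and 1.078 on the KO arrays. The genotypes overlapped and the difference was -0.05 (SE 0.041, limma adjusted p = 0.523, 95% interval -0.14 to 0.05). The second Thrb probe gave 0.03 (SE 0.044, adjusted p = 0.741), and both probes were annotated to transcript NM_009380.

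Rxrg, the retinoid X receptor that pairs with Thrb, gave opposite differences on its probes, although both carried the same transcript (NM_009107). The probe with the higher mean over all 8 arrays, called the first here (A_51_P513311), read 1.34, 1.29, 1.40 and 1.38 on the WT arrays and 1.53, 1.46, 1.43 and 1.42 on the KO arrays. The other (A_55_P2044359) read 1.36, 1.32, 1.41 and 1.25 on the WT arrays and 1.12, 0.60, 0.97 and 0.96 on the KO arrays. The KO arrays lay wholly above the WT arrays on the first probe and wholly below on the second. The differences were 0.11 (SE 0.043, limma adjusted p = 0.172) and -0.42 (SE 0.105, adjusted p = 0.0561). Neither was called, so the direction of Rxrg is not settled by this array. On the WT arrays the probes had nearly the same mean, 1.35 and 1.33, with the first slightly the higher. The KO arrays (1.46 and 0.91) kept that order and widened the gap. The second probe was called in 4 of 13 alternative settings, among them normexp background correction (-0.47, limma adjusted p = 0.0145) and the looser adjusted p under 0.5. It was also called in 1 of the 8 runs that omitted an array, that without KO replicate 1 (-0.49, adjusted p = 0.0412). The reference table lists 2 start sites for Rxrg, and which transcript each probe reads was not analysed here.

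**Figure D2:**
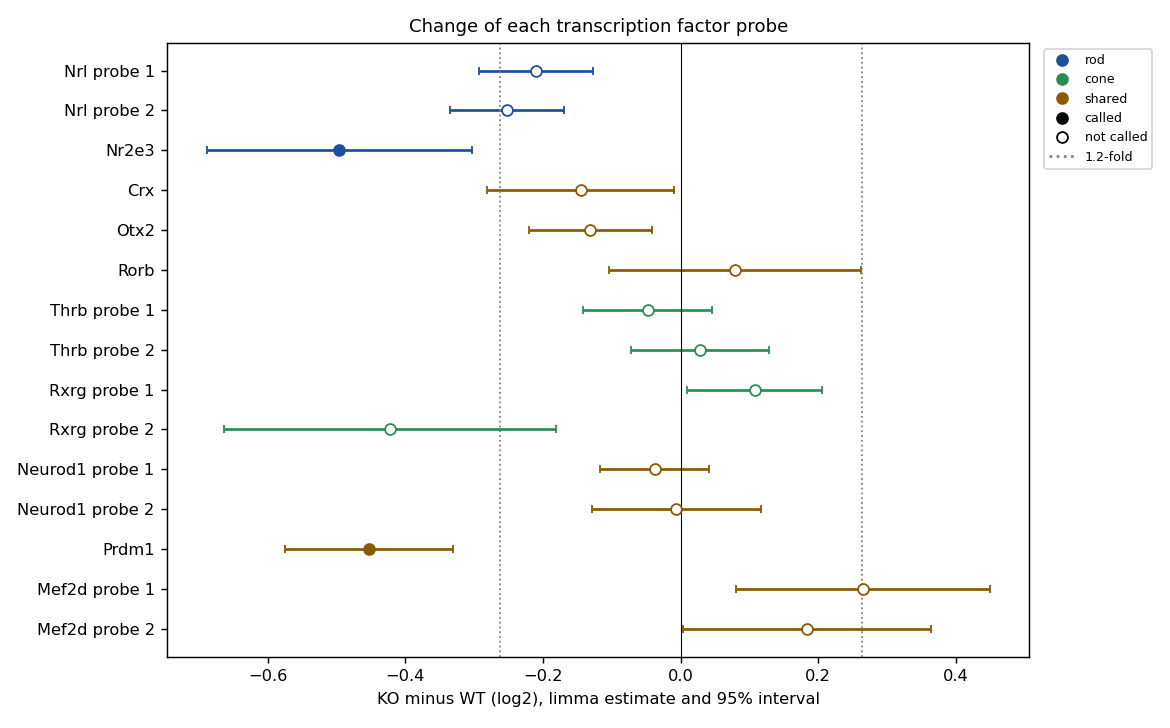
KO minus WT difference of each probe on the log2 scale (points) with its 95% interval from limma (bars), coloured by rod, cone or shared factor, filled where called. Only Nr2e3 and Prdm1 are filled, and the Rxrg probes lie on opposite sides of 0 at 0.11 and -0.42.

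Rod and cone factors were set against each other within each array, so that a constant shift of an array cancels. The mean of Nrl and Nr2e3 minus the mean of Thrb and Rxrg, with 1 probe per gene and relative to the WT mean, was 0.02, -0.01, -0.05 and 0.04 on the WT arrays and -0.31, -0.44, -0.40 and -0.39 on the KO arrays. The ranges did not overlap, and the difference was -0.38 (SD 0.037 in WT and 0.053 in KO, n = 4 each). By gene pairs it was -0.16 for Nrl against Thrb, -0.32 for Nrl against Rxrg, -0.45 for Nr2e3 against Thrb and -0.60 for Nr2e3 against Rxrg. These values rest on the Rxrg probe chosen, which the rule took by its mean over all arrays, KO included. With the other one the difference of the pairs of factors was -0.12, that of Nrl against Rxrg turned to 0.21 and that of Nr2e3 against Rxrg was -0.07, each with overlapping genotypes. With quantile normalisation the difference of the pairs of factors was -0.31, and with the mean of each gene's probes it was -0.28. No p is given for these scores, because the factors were chosen with results of these data known.

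**Figure D3:**
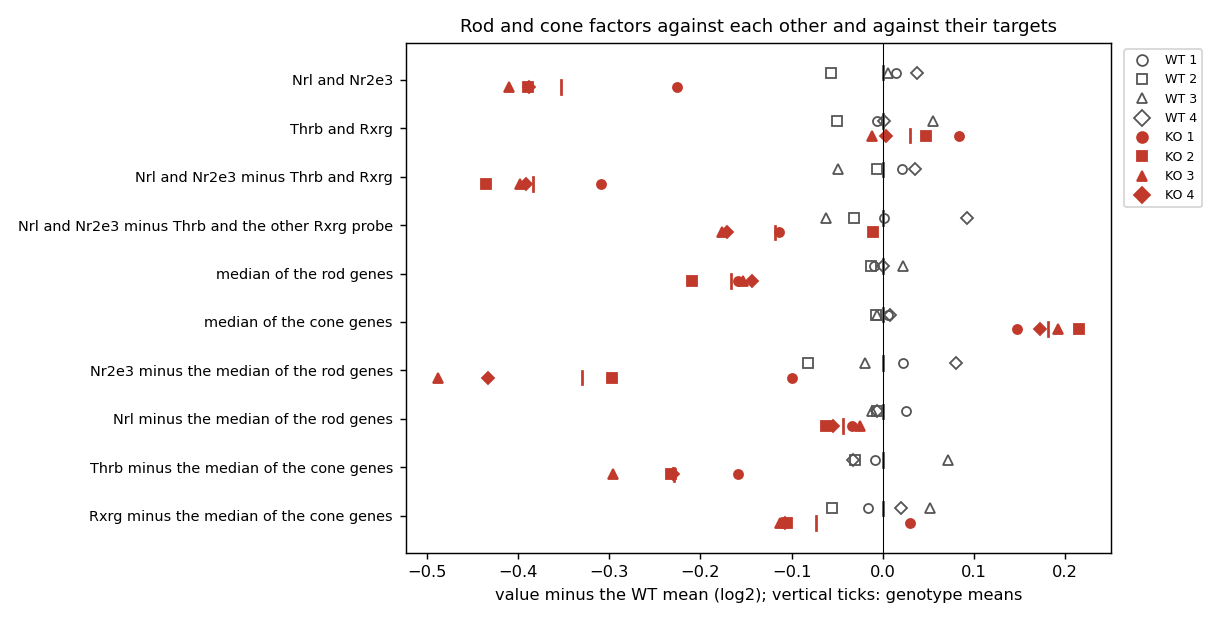
Scores per array relative to the WT mean on the log2 scale (open grey WT, filled red KO, vertical ticks for genotype means), for the factor pairs, their difference with each Rxrg probe, the median rod and cone gene, and single factors against those medians. The rod minus cone score of the KO arrays lies between -0.44 and -0.31 with the first Rxrg probe, and it reaches the WT range with the other.

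Most of the phototransduction and outer segment genes of rods read lower in KO and most cone genes higher, with few past the test. Of 30 rod genes, 6 were called lower and 0 higher, and 25 had a difference below 0, with a median of -0.19 (-0.09 with quantile normalisation). Of 16 cone genes, 2 were called higher and 1 lower, and 15 had a difference above 0, with a median of 0.18 (0.21 with quantile normalisation). Over all 14940 tested genes 3.48% were called, 1.99% higher and 1.49% lower, and their median was -0.02. Both lists were chosen with earlier results known and are given as descriptions.

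Of the rod genes, Fscn2, an actin-bundling protein of the outer segment, fell by 0.46 on the log2 scale (SE 0.043, limma adjusted p = 0.0040). Rdh12, a retinol dehydrogenase, fell by 0.38 (SE 0.061, adjusted p = 0.0178) and Sag by 0.36 (SE 0.038, adjusted p = 0.0052). Sag read 7.87, 7.79, 7.83 and 7.79 on the WT arrays and 7.43, 7.42, 7.49 and 7.49 on the KO arrays, with a wide gap between genotypes. Gnb1, a transducin subunit, fell by 0.30 (SE 0.037, adjusted p = 0.0097). When each array was omitted in turn, Fscn2, Sag and Gnb1 were called in all 8 runs and Rdh12 in 5. With quantile normalisation Sag (-0.25) and Gnb1 (-0.21) stayed under 1.2-fold and were not called, and Rdh12 was not called with no filter on dim probes (adjusted p = 0.0638). Gnat1, the rod transducin alpha subunit, differed by -0.04 (SE 0.041, adjusted p = 0.604).

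Of the cone genes, Arr3, the cone arrestin, rose by 0.46 (SE 0.037, limma adjusted p = 0.0024), and its other probe by 0.53. Arr3 read 5.10, 5.07, 5.05 and 5.07 on the WT arrays and 5.53, 5.59, 5.48 and 5.53 on the KO arrays, which did not overlap. Opn1sw, the short-wavelength opsin that Rxrg and Thrb hold down, rose by 0.43 (SE 0.094, adjusted p = 0.0401). Fabp7, a fatty acid-binding protein that glia also express, fell by 0.36 (SE 0.063, adjusted p = 0.0234). Arr3 was called in all 8 runs that omitted an array, Fabp7 in 2 and Opn1sw in 1. Neither Opn1sw (adjusted p = 0.108) nor Fabp7 (0.0803) was called with no filter on dim probes, Opn1sw also missed with the unpaired test (0.0663) and Fabp7 with the median shift (0.0701).

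Within each array, Nr2e3 lay further below WT than the median rod gene did. Nr2e3 minus that median was -0.10, -0.30, -0.49 and -0.43 on the KO arrays relative to the WT mean, with a mean of -0.33. These lay below all WT arrays, KO replicate 1 only narrowly, as the lowest WT array was at -0.08. For Nrl the same difference was -0.04, also without overlap but by a narrow gap (highest KO array -0.025, lowest WT array -0.012). Thrb minus the median cone gene was -0.23 without overlap, and Rxrg minus that median was -0.07 with overlap on its first probe and -0.60 without overlap on the other. The genes with the profile closest to Nr2e3 over the 8 arrays, each centred on its own mean, were Tmem86a, Myo1g and Tnfrsf13c, with root mean square differences of 0.0741, 0.0798 and 0.0817. All 3 were called lower, but they were picked for likeness to Nr2e3 on the same arrays, so their calls add no separate result. Closest to Nrl were Galk1 (0.0123), Zfp41 (0.0142) and Nudt8 (0.0169), none of them called. Closest to Thrb were Gprin1, Ap3m1 and Slc35f6, and closest to Rxrg were Ralgapa2, Dym and Chn1, at 0.0132 to 0.0201.

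Other regulators of the pathway were called in both directions on the rod side. Of 14 regulators there, 1 was called lower and 2 higher (21.4%), against 3.48% of all tested genes, with a median of -0.04. Samd11, a partner of the Polycomb complex in rods, fell by 0.37 (SE 0.054, limma adjusted p = 0.0144), while its relative Samd7 gave -0.07 (adjusted p = 0.389). Nr1d1, a clock nuclear receptor that cooperates with Nr2e3, rose by 0.32 (SE 0.040, adjusted p = 0.0097). Mef2c rose by 0.31 (SE 0.064, adjusted p = 0.0352), and Esrrb gave 0.05 (adjusted p = 0.683). Of 15 regulators on the cone side, 1 was called (6.67%): Dio3, the deiodinase that inactivates thyroid hormone, rose by 0.44 (SE 0.092, adjusted p = 0.0361). The Dio3 call was lost with normexp background correction (0.17, adjusted p = 0.0580), with no filter on dim probes, with trend and robust eBayes and with the unpaired test. Dio2, the activating enzyme, gave 0.35 (adjusted p = 0.0508), and was called with normexp (0.37, adjusted p = 0.0205). With arrays omitted in turn, Samd11 and Nr1d1 were called in all 8 runs, and Mef2c and Dio3 in 1 each. With normexp background correction Nr1d1 and Mef2c, at 0.26 each, were not called, which left 0 rod-side regulators higher and 1 lower. With no filter on dim probes neither Samd11 (adjusted p = 0.0565) nor Mef2c (0.101) was called.

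The bipolar genes, whose fate Prdm1 opposes, gave 0 calls by limma among 14 tested, 3 of them at an unadjusted p under 0.05, and 0 calls by limma with trend and robust or by an unpaired test. Their median was 0.08 and 11 lay above 0, which was not particular to them. Medians were 0.08 for amacrine and horizontal markers (10 of 12 above 0) and 0.16 for Müller glia markers (10 of 12). They were 0.04 for ganglion cell markers (7 of 10), 0.11 for retinal pigment epithelium markers (8 of 10) and -0.17 for lens markers (3 of 8). Markers of other cell types were called as well. Of 12 Müller glia markers, 3 were called higher and 0 lower, and their summed level ran from 8.60 to 8.66 in WT and from 8.83 to 8.86 in KO. All 15 microglia markers measured were above 0 and 7 were called higher, led by Tyrobp at 0.65, C1qc at 0.57, C1qb at 0.54, C1qa at 0.50 and Trem2 at 0.49. Their summed level ran from 5.14 to 5.41 in WT and from 5.31 to 5.51 in KO. That sum is led by 1 marker that was not called, at 4.38 in WT (SD 0.24) with a difference of 0.02. The overlap of the sums therefore says little about the other microglia markers. Of the retinal pigment epithelium markers, 1 of 10 tested was called (Mitf, 0.31), and the summed levels overlapped, at 4.69 to 5.02 against 4.70 to 5.05. This sum is led by the markers at 3.24 and 3.16 in WT, with differences of 0.07 and 0.01. Limma called 0 of 8 lens, 0 of 12 amacrine and horizontal and 0 of 10 ganglion cell markers (3, 4 and 4 at an unadjusted p under 0.05, and 0 called by the other tests run). The part of these markers in the values of the factors was not tested.

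**Figure D4:**
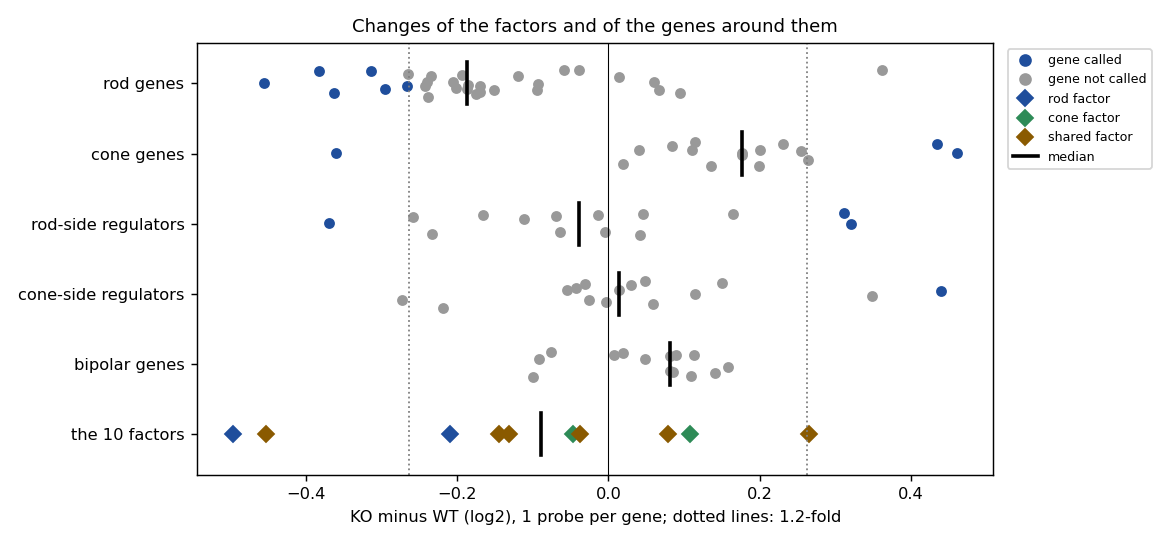
KO minus WT differences on the log2 scale of the genes of 5 lists and of the 10 factors, 1 probe per gene, with black bars for medians, blue points for called genes and dotted lines at 1.2-fold. The median rod gene sits at -0.19, the median cone gene at 0.18 and the median of the 10 factors at -0.09.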

How the data were processed

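The authors labelled cRNA with Cy3 for Agilent SurePrint G3 Mouse GE arrays and read spot signals with Feature Extraction (10.7.1.1 by the submitters' processing notes). What was deposited for each array is, per the file headers, spot intensity on a linear scale after background subtraction, unscaled between arrays. The authors' deposited table holds log2 values after a 75th percentile shift, each array of which lay a constant away from the values used here, and it served as an alternative. No per-sample column was left unused (0).

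Levels were log2 processed signal minus the 75th percentile of each array's 59305 non-control spots, without outlier spots (86 to 147 per array), with repeated spots averaged. The test took in the 33975 probes that stood well above background in every sample of 1 genotype or both. Symbols came from RefSeq by transcript (47.4% of probes), and a gene's value is its probe with the highest mean. Genotypes were compared with limma 3.58.1 (lmFit, eBayes, Benjamini-Hochberg) in R 4.3.3, and promoters were searched in Python 3.11.15. Calls needed a fold change over 1.2 with an adjusted p under 0.05, thresholds that the methods name beside 1.5 and 0.5. Precision is limited by how many arrays there are. On simulated data for KO against WT (33975 probes), 12 of 50 probes changed by 0.3 and 35 of 50 changed by 0.5 on the log2 scale were recovered, with 5 false calls.

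The genes, lists and tests were chosen with earlier results of these data known. Named were every factor, Lpcat1, the called genes of a list (the 5 with the largest changes at most), a fixed set of anchor genes, and the 3 nearest profiles of Nrl, Nr2e3, Thrb and Rxrg. Some genes set in this way are not reported here. Alternatives were other scalings, normexp correction (on median signals, offset 50), other filters, thresholds and tests, replicate number as a block, a mean over each gene's probes, and leaving out every array once. Using the other Rxrg probe, in the score and by gene pair, was added after seeing the data.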

Additional observations from a re-analysis of the deposited data

Results flagged for a closer look

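Among 116 groups of 4 arrays examined, 7 had an array whose gap to its nearest neighbour took up more of the group's range than the 95% critical value of Dixon's test for 4 values allows, and chance alone gives such a gap in about 5% of groups. KO replicate 1 was that array for 4 of the 7. It had the highest mean level of Nrl and Nr2e3 in KO (7.20 against 7.01 to 7.04, gap 0.881), the highest Nr2e3 minus Thrb (5.19 against 4.90 to 4.94, gap 0.835), the highest Rxrg minus the median cone gene (0.03 against -0.11 to -0.10, gap 0.947) and the lowest Fscn2 (1.24 against 1.33 to 1.35, gap 0.846). In WT, replicate 3 had the lowest Nrl minus Thrb (7.09 against 7.16 in the others, gap 0.991) and the highest Gnb1 (6.17 against 6.10 to 6.11, gap 0.869). WT replicate 1 had the highest Nrl minus the median rod gene (0.03 against -0.01 to -0.004, gap 0.835).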

How the results depend on the processing

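Of the 15 factor probes, 2 were called, against 4 with trend and robust eBayes, 1 with no filter on dim probes, 0 at a fold over 1.5, 4 at an adjusted p under 0.5, and 1 to 4 when an array was left out (4 without KO replicate 1). All tested probes called were 993, against 246 with no filter, 139 at 1.5-fold, 3137 at 0.5, and 369 to 1184 with an array left out (1184 without KO replicate 1, 369 without WT replicate 2). Rod genes called were 6, against 2 with quantile normalisation, 0 at 1.5-fold, and 4 to 7 with an array left out. Cone genes called were 3, against 5 with quantile normalisation, 1 with no filter, 0 at 1.5-fold, and 1 to 3 with an array left out. Rod-side regulators called were 3, against 1 with normexp, 1 with no filter, 0 at 1.5-fold, and 2 to 3 with an array left out. Cone-side regulators called were 1, against 2 with quantile normalisation, the percentile of detected probes or the filter of all 8 arrays, 3 at 0.5, 0 with no filter, the unpaired t-test of the methods or 1.5-fold, and 0 to 1 with an array left out. The rod minus cone difference of -0.38 was -0.31 with quantile normalisation, -0.28 with the mean of probes and -0.12 with the other Rxrg probe, and -0.41 to -0.37 with an array left out. Neurod1 probe A_52_P408391 (-0.01) turned to 0.0219 with quantile normalisation, 0.0105 with the median shift, 0.0129 with the percentile of detected probes, 0.0296 with normexp and 0.0059 with the authors' values, and ran from -0.0329 to 0.0329 with an array left out. With the replicate block 0 factor probes (Prdm1 adjusted p = 0.0517 and Nr2e3 0.0580 by limma), 395 of all probes, 1 cone gene and 0 cone-side regulators were called. Same-numbered arrays correlated in their deviations at 0.249, 0.0687, 0.0371 and 0.112, and differently numbered ones at -0.202 to 0.0599. Each KO array correlated most with the WT array of its own number. The labels give no pairing and the main fit used none, but whether the numbers pair the samples is not settled. Among the values of single factor probes under all alternatives, 287 kept their direction and side of the threshold, 12 lost the call, 9 gained it and 7 turned sign. All 15 probes were well above background on all 8 arrays. The cause of these changes was not tested.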
